A study of Mus musculus with 14 samples.

Results

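Inguinal fat of SRA mice, in which a transgene switches on the renin-angiotensin system of the brain, was compared with inguinal fat of non-transgenic mice while both received a saline infusion. The comparison held 6 of the 14 libraries of the series, taken by their labels: 3 of SRA mice and 3 of non-transgenic mice (CON). All animals were of the strain C57BL/6J. CON held 2 males and 1 female, and SRA held 1 male and 2 females. The other 8 libraries came from mice infused with CGP, which the series describes as a specific agonist for type 2 angiotensin receptors: 4 non-transgenic (CON_CGP) and 4 SRA (SRA_CGP), with 2 males and 2 females in each. The labels used here give no age, dose, infusion length or transgene promoter. They also do not state that each library is a separate animal, so p-values measure only the spread between these libraries, which may be technical.

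In the renin-angiotensin system, renin cleaves angiotensinogen and converting enzyme then forms angiotensin II, which acts on receptors of type 1 and type 2. Within the brain the system is known for raising thirst, blood pressure and sympathetic outflow, and through sympathetic nerves it can change heat production and fuel release in fat. SRA mice are known from earlier work to carry human renin driven by a neuronal promoter together with human angiotensinogen under its own promoter. Inguinal fat is a subcutaneous depot in which white adipocytes can be joined by heat-producing beige adipocytes, and it lies next to muscle, skin and, in females, mammary tissue.

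The table gave 1 whole-number value, headed as a normalized count, for each of 55419 UCSC transcripts of the mouse build mm9 in each library. Of these, 31967 (57.7%) averaged 100 or more across the 14 libraries and were analysed. They held 99.5% of all summed values. The table carries no gene names, and 0 of the IDs matched a symbol in the reference tables, so transcripts are named by ID and the markers of fat, muscle or mammary tissue could not be looked up. The human transgenes were not analysed here. Library totals lay between 79970748 and 79985973, so they show no sequencing depth, and the depth is unknown. In bulk tissue, fewer cells of a type and less RNA per cell cannot be told apart.

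The values were rescaled to a common median ratio, and the factors themselves separated the groups. They ran from 1.03 to 1.16 in CON and from 0.855 to 0.955 in SRA, without overlap, while those of CON_CGP (0.930 to 1.13) and SRA_CGP (0.887 to 1.06) overlapped. The share held by abundant transcripts was compared beside them. The 100 transcripts with the highest means held 16.0%, 23.2% and 16.5% of the total in CON replicates 1, 2 and 3, and 24.5%, 24.8% and 20.9% in SRA replicates 1, 2 and 3. CON replicate 2 thus lay within the SRA range. All levels below are rescaled values, and differences are on the log2(value + 1) scale, SRA minus CON.

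Of the 6 saline libraries, the male SRA library, replicate 3, stood farthest from the rest. The root mean square of the log2 differences over all analysed transcripts was 0.32 between the female SRA libraries, replicates 1 and 2, and 0.42 between the male CON libraries, replicates 1 and 2. It was 1.09 and 1.10 between SRA replicate 3 and the other SRA libraries, and 1.19 to 1.33 between SRA replicate 3 and the CON libraries. The closest pair across genotypes were 2 females, CON replicate 3 and SRA replicate 1, at 0.70. With both sexes mixed, distances across genotypes (0.70 to 1.33, 9 pairs) overlapped those within CON (0.42 to 0.87, 3 pairs) and within SRA (0.32 to 1.10, 3 pairs), whose upper ends came from pairs of different sex. Among pairs of the same sex, the 4 across genotypes (0.70, 0.76, 1.19 and 1.22) were all farther apart than the 2 within a genotype (0.32 and 0.42). Each of these 4 pairs holds CON replicate 3 or SRA replicate 3, and neither of the 2 pairs within a genotype does. Genotype therefore cannot be told apart here from other features of those 2 libraries. These 6 pairs share libraries and were not tested.

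**Figure D1:**
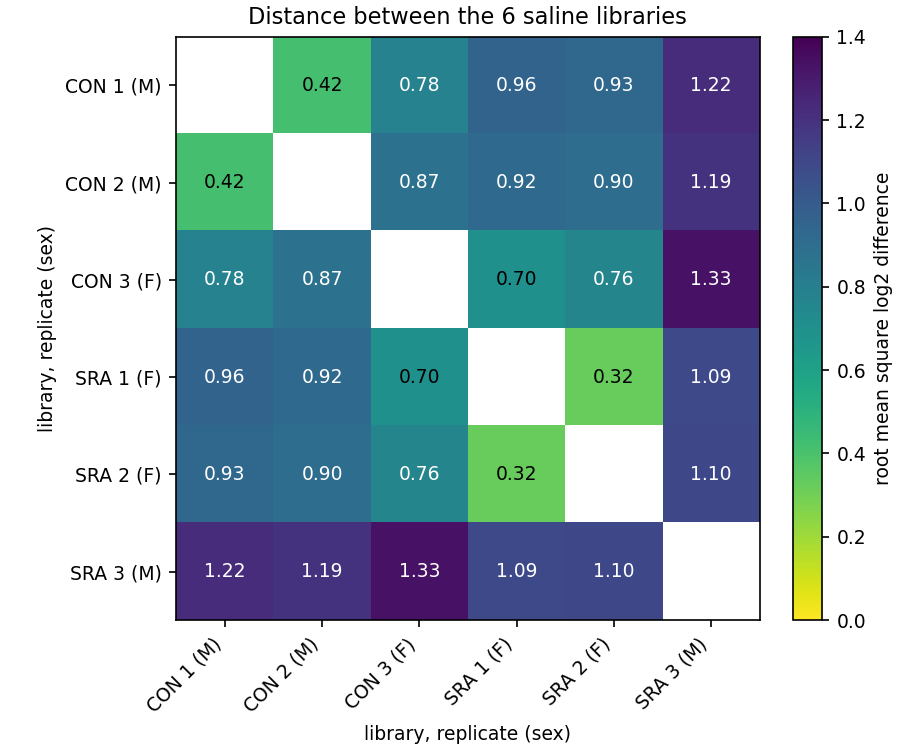
Root mean square log2 difference over the 31967 analysed transcripts for each pair of the 6 saline libraries, with replicate number and sex on both axes and the value in each square. The same-sex pairs within a genotype are closest (0.32 and 0.42), and every pair with SRA replicate 3 is at 1.09 or more.

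A set of 332 transcripts was more than 16-fold higher in SRA replicate 3 than in each of the other 5 saline libraries. No other library of the series had any transcript that far above all others of its infusion. The set took 10.2% of all values in SRA replicate 3, with a median level of 6420, and between 0.0516% and 0.0801% in the other saline libraries, with medians from 17.5 to 46.7. Under CGP it took 0.597% in SRA_CGP replicate 1, 0.690% in SRA_CGP replicate 3 and at most 0.148% in the remaining 6. Its median levels there were 326, 496 and at most 98.9. The set was found after the values were seen. The levels of the set were far highest in SRA replicate 3. Whether they come from the transgene, the dissection or other features of that library was not tested.

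Transcripts of the other sex were looked at in 12 transcripts seen at 100 or more in every male, with every female below the lowest male. At least 1 female had to be at 1 or less, and 49 were chosen the same way for females. They were chosen by the labelled sex, so high values in that sex were fixed by the choice and do not check the labels. Low values in the other sex were fixed in part by the same rules. Relative to the median of the sex that expresses them, the male transcripts stood at 4.27% in the female CON replicate 3, against 0.0458% and 0% in the female SRA replicates 1 and 2. The female transcripts stood at 5.90% in the male SRA replicate 3, against 2.19% and 0.330% in the male CON replicates 1 and 2. The 2 saline libraries above 3% are the only female of CON and the only male of SRA. In all, 6 of the 14 libraries were above that level. The part of these low levels in the genotype difference was not tested, and counts without these libraries are given below.

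With all 14 libraries and sex in the limma fit, no transcript passed the Benjamini-Hochberg threshold of 0.05 between SRA and CON under saline (0 called, 0% of those tested). The smallest adjusted p was 0.132. At an unadjusted p under 0.05 there were 6569 transcripts (20.5% of those tested), of which 4859 (15.2%) were higher and 1710 (5.35%) lower in SRA. That number was 3982 without CON replicate 1, 3284 without SRA replicate 3, 2603 without CON replicate 3 and 794 without the last pair, which left males alone in CON and females alone in SRA. The median difference of all transcripts was 0.04. It was -0.24 on the values as deposited, where 77.6% of the transcripts at an unadjusted p under 0.05 were lower in SRA, and 45.2% were lower after quantile normalization. On the deposited values, transcripts of all abundances moved by about the same amount. This changes the sign of small differences and the balance of higher and lower transcripts. Quantile normalization moved transcripts unequally. Their median went from 0.28 to -0.12 at means of 10000 or more, and from -0.01 to -0.03 at means of 100 to 300.

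The number of calls differed widely between fits, and the cause was not tested. In a fit of the 6 saline libraries alone, limma called 4754 transcripts (14.9% of those tested), 2256 (7.06%) higher and 2498 (7.81%) lower in SRA. The smallest limma adjusted p was 0.0418, so all of these calls lay just under the threshold of 0.05. Without SRA replicate 3 the same fit, with its sex term, sets the SRA females against CON replicate 3 alone. That gives no test, so how far the 4754 calls rest on SRA replicate 3 was not tested. With the replicate number as a block in the fit of all groups, limma called 532 (1.66% of those tested), 472 (1.48%) higher and 60 (0.188%) lower. Of these 532, 175 belonged to the set seen in SRA replicate 3, which was chosen on the same values. Only 186 transcripts were on both lists, 35.0% of the list with the block and 3.91% of the list from the saline libraries alone. The labels do not say what a replicate number stands for, and number 3 is the odd sex of both groups, so pairing and sex layout cannot be told apart here.

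The 4 transcripts named by rule, 2 in each direction with the lowest p, did not pass in the fit of all groups (limma adjusted p = 0.132 for each). For uc012cti.1, CON mice had 29.8, 14.6 and 86.2, and SRA mice had 1132, 1719 and 144 in replicates 1, 2 and 3. Every SRA library was above every CON library, and the 2 SRA females were far above the SRA male. The fitted difference was 3.58 ± 0.53 (log2, SE), or 12.0-fold. It stood at 4.23 without SRA replicate 3 and 3.24 without SRA replicate 2. Within females the difference was 4.00 and within males 2.73. Under CGP uc012cti.1 lay at 14.2 to 66.0 in CON_CGP and 21.7 to 125 in SRA_CGP, so the genotypes overlapped there and the level of the saline SRA females was not seen again.

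For uc007ucx.2, CON mice had 21.9, 21.3 and 46.5, and SRA mice had 348, 609 and 91.2. The pattern resembled that of uc012cti.1, with both SRA females highest, the SRA male next and no overlap with CON. The fitted difference was 2.82 ± 0.43 (log2, SE), or 7.07-fold, at 3.28 within females and 2.03 within males. Under CGP the values were 15.1 to 38.4 in CON_CGP and 35.9 to 74.6 in SRA_CGP, a difference of 1.00 ± 0.36 (log2, SE, limma adjusted p = 0.72), and the genotypes overlapped.

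For uc007wzv.1, CON mice had 890, 724 and 889, and SRA mice had 325, 365 and 335. The SRA libraries lay close together, all below the lowest CON value. The fitted difference was -1.19 ± 0.18 (log2, SE), with -1.37 within females and -1.26 within males. A further 3 transcripts followed it to within 0.1 log2 units in every library and were not named again. Under CGP it was at 546 to 814 in CON_CGP and 361 to 605 in SRA_CGP, with overlap, at a difference of -0.54 ± 0.16 (log2, SE, limma adjusted p = 0.72). Without the 6 libraries above 3% for the other sex, the saline difference was -0.57.

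For uc008mkp.1, CON mice had 1752, 1536 and 2359, and SRA mice had 637, 501 and 692. The lowest CON value was above the highest SRA value in both infusions, since CON_CGP lay at 680 to 1331 and SRA_CGP at 429 to 668. CON_CGP libraries (910 ± 288, SD, n = 4) were below every saline CON library (1882 ± 427, SD, n = 3). The saline difference was -1.53 ± 0.25 (log2, SE), at -2.06 within females and -1.24 within males, and -0.73 without the 6 libraries above 3%. Under CGP it was -0.70 ± 0.21 (log2, SE, limma adjusted p = 0.72).

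**Figure D2:**
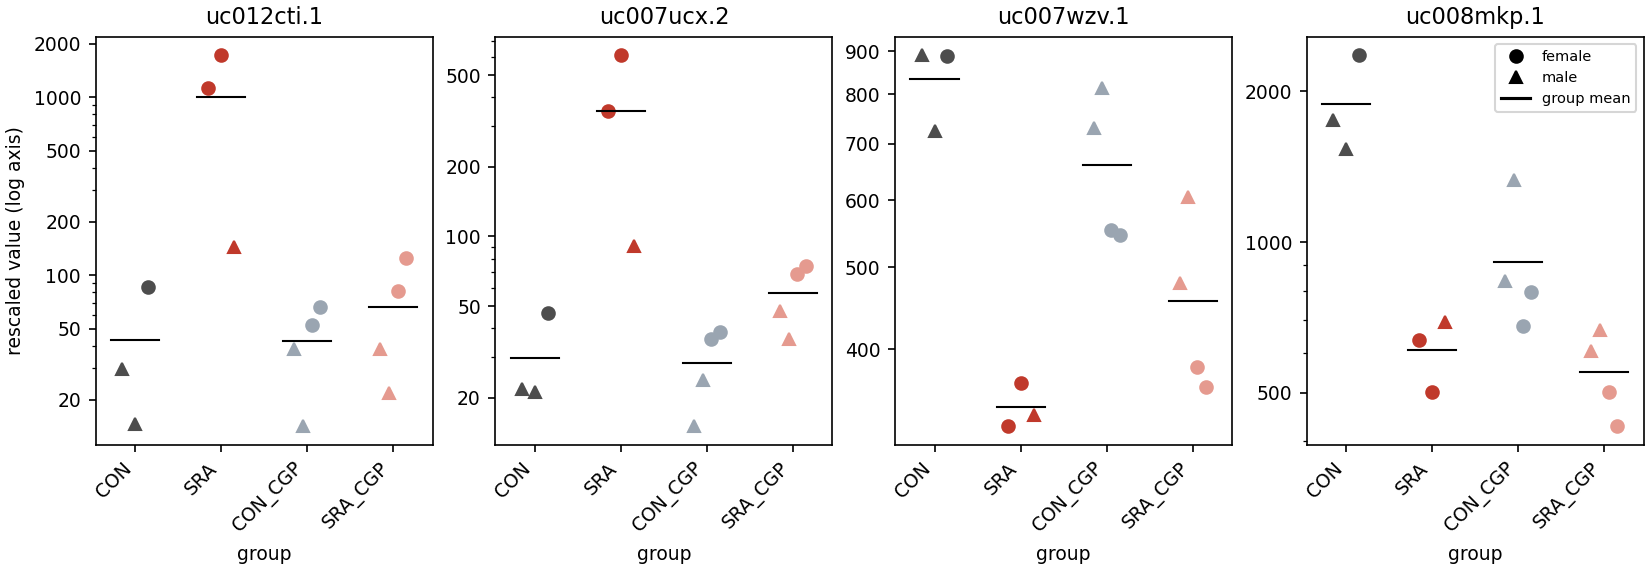
Rescaled value (log axis) of the 4 named transcripts in each library, by group, with circles for females, triangles for males and a line at the group mean. In uc012cti.1 and uc007ucx.2 the 2 SRA females stand far above all other libraries, and in uc007wzv.1 and uc008mkp.1 the 3 SRA libraries lie together below the 3 CON libraries.

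Outside the saline SRA group, uc012cti.1 and uc007ucx.2 had group means of 42.9 to 66.7 and 28.4 to 56.7, so both entered the analysis, at a mean of 100 or more, only through the group in which they were high. Their inclusion thus rests on the values that were tested. All 4 passed with the replicate block, at limma adjusted p = 0.0181, 0.0237, 0.0274 and 0.0417 in the order given. The fit restricted to the 6 saline libraries called all 4 as well (limma adjusted p = 0.0418 each). Without SRA replicate 3 that fit gave 4.00, 3.28, -1.37 and -2.06 (log2). These are the differences within females, which rest on 1 CON library. Leaving CON replicate 2 out of the fit of all groups gave limma adjusted p = 0.0468 for each of the 4, and 342 calls in all. Between these fits the named transcripts kept their direction.

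The saline differences were wider than those of the same contrast under CGP, though with 3 libraries a group against 4. The middle 90% of the saline differences ran from -0.85 to 0.93, against -0.64 to 0.45 under CGP. Differences above 1, a 2-fold change, were fitted for 1329 transcripts (4.16% of those tested) and below -1 for 940 (2.94%). Of the 1329, 332 were the set seen in SRA replicate 3, whose choice on these values favours a large difference. SRA replicate 3 was the highest SRA library in 769 of the 1329. Without SRA replicate 3 the counts were 1054 and 369, without CON replicate 3 they were 1162 and 448, and without CON replicate 2 they were 1921 and 1514. Without SRA replicate 2 there were 1609 below -1, and without both libraries above 3% for the other sex the counts were 793 and 235. On the values as deposited the balance turned, with 833 above 1 and 2331 below -1.

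Abundance classes showed where the difference lay along the range of levels. Transcripts with a mean of 100 to 300 had a median difference of -0.01, and 9.08% of them were higher and 5.62% lower at an unadjusted p under 0.05. The shares that were higher increased with abundance, to 13.9% at means of 300 to 1000, 17.1% at 1000 to 3000 and 19.7% at 3000 to 10000, while the shares that were lower stayed between 5.20% and 5.42% in these 3 classes. Among the 895 transcripts with a mean of 10000 or more the median was 0.28, with 28.6% higher and 3.13% lower. Under CGP the same 895 had a median of 0.14. The class moved with the scaling: its saline median was -0.001 on the deposited values and -0.12 after quantile normalization.

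**Figure D3:**
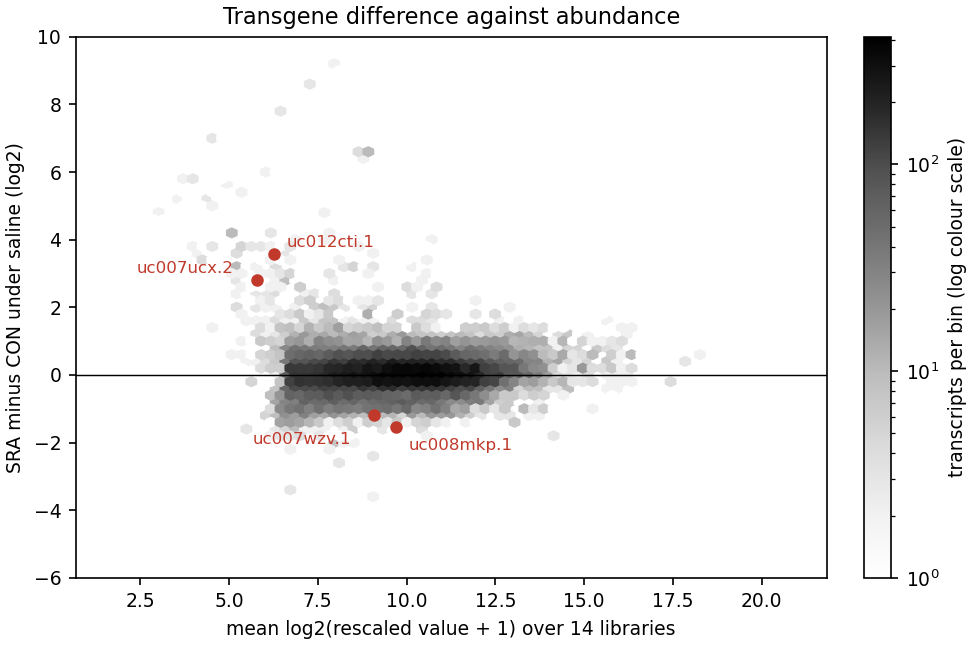
Fitted log2 difference of SRA minus CON under saline against mean log2(rescaled value + 1) over the 14 libraries, with the number of transcripts per bin as grey (log colour scale) and the 4 named transcripts in red. The bulk lies around 0.04, and the scattered bins far above it include uc012cti.1 (3.58) and uc007ucx.2 (2.82).

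Both sexes could be looked at apart, though each had 1 library on one side and gave no test. In females, 2 SRA libraries were set against CON replicate 3, and in males SRA replicate 3 was set against 2 CON libraries, so the sexes shared no library. The differences had the same sign in 23422 transcripts (73.3%). Across the 31967 transcripts Pearson's r was 0.45 and Spearman's rho 0.58, as a description of transcripts, which are not independent and share the rescaling. Male differences spread more widely (SD over transcripts 1.18) than female ones (0.71).

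Lists of large differences overlapped in part between the sexes. A difference below -1 was seen in 1273 transcripts in females (3.98% of those tested) and 2347 in males (7.34%). In both sexes 627 (1.96%) were below -1, 49.3% of the female and 26.7% of the male list. A difference above 1 was seen in 1959 (6.13%) and 2156 (6.74%) transcripts. In both sexes 469 (1.47%) were above 1, 23.9% and 21.8% of the lists. Opposite differences of that size were fewer. There were 31 transcripts (0.097%) above 1 in females and below -1 in males, and 102 (0.319%) the other way round.

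**Figure D4:**
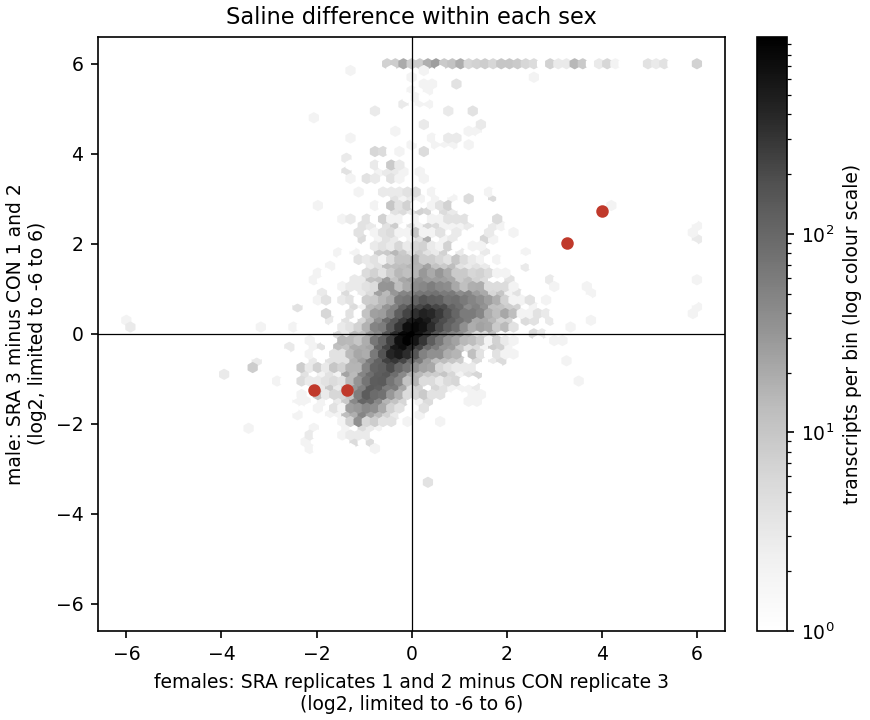
Log2 difference of SRA minus CON under saline in females (x axis, SRA replicates 1 and 2 against CON replicate 3) and in males (y axis, SRA replicate 3 against CON replicates 1 and 2), both limited to the range shown, with transcripts per bin as grey and the 4 named transcripts in red. A band along the top edge holds transcripts that are very high in SRA replicate 3, and the remaining cloud slopes upward (73.3% with the same sign).

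Complete separation of the groups was frequent. In 13151 transcripts (41.1% of those tested) the 3 SRA libraries lay all above or all below the 3 CON libraries, 6473 (20.2%) higher and 6678 (20.9%) lower. Near-identical neighbours in the table reduced these to 5240 and 5300 runs. The balance followed the scaling, with 2131 higher and 12545 lower as deposited, and 5061 and 7748 after quantile normalization. Separation under CGP, where 4 libraries faced 4, was seen in 904 transcripts (2.83%), 594 (1.86%) higher and 310 (0.970%) lower. The numbers of libraries differ, so these shares are not comparable across infusions. Libraries of a group vary together, as the distances show, so transcripts are not independent pieces of evidence.

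The CGP groups allowed the same genotype contrast in 8 other libraries, with equal numbers of each sex. Of the 6473 transcripts that were higher in SRA without overlap under saline, 5534 (85.5%) were also higher under CGP, against 49.2% of all tested. Of the 6678 that were lower, 5660 (84.8%) were also lower under CGP, against 50.8% of all. The median differences were 0.49 under saline and 0.17 under CGP for the first set and -0.56 and -0.23 for the second. Both sets were chosen on their saline values, which makes the saline medians larger, so the smaller medians under CGP do not show a weaker genotype difference there. On the values as deposited the shares were 81.7% and 89.1%, against 31.4% higher and 68.6% lower among all, and without both saline libraries above 3% for the other sex they were 73.5% and 76.2%.

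Few were separated in both infusions. Of the higher set, 246 (3.8%) were also separated and higher under CGP, against 1.86% of all tested. A further 8 (0.124%) were separated the other way, against 0.970% of all. Of the lower set, 94 (1.41%) were separated and lower under CGP, against 0.970% of all. The other way there were 8 (0.12%), against 1.86% of all. Sets chosen for larger saline differences were looked at in the same way. Of the 1329 transcripts above 1 under saline, 85.3% were higher under CGP, with a median of 0.49 there. Of the 940 below -1, 95.5% were lower, with a median of -0.68. Among the 472 transcripts called higher with the replicate block, 438 were higher under CGP, and among the 60 called lower, 59 were lower. Of all tested, 49.2% were higher and 50.8% lower under CGP. The set seen in SRA replicate 3 held 332 of the 1329 and 175 of the calls with the block. Under CGP its median levels were 326 and 496 in SRA_CGP replicates 1 and 3. They were 47.2 and 98.9 in SRA_CGP replicates 2 and 4, and 35.5 to 96.5 in CON_CGP. How far the shares that were higher rest on SRA_CGP replicates 1 and 3 was not tested.

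**Figure D5:**
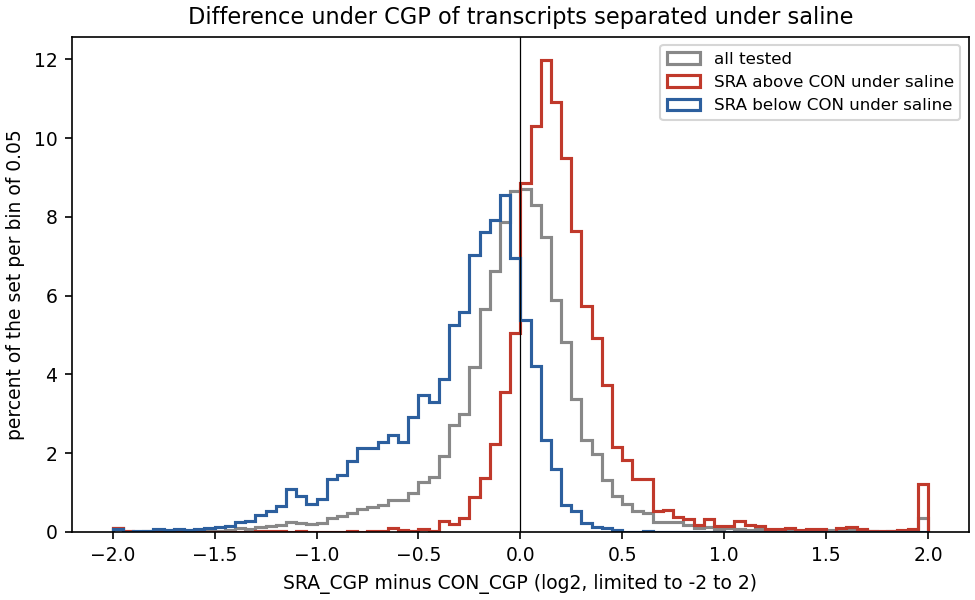
Distribution of the genotype difference under CGP (SRA_CGP minus CON_CGP, log2) as a percentage of each set, for all analysed transcripts (grey), those with every SRA library above every CON library under saline (red) and those with every SRA library below (blue). The red and blue sets lie to the right and left of 0, with medians of 0.17 and -0.23.

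In its own test the genotype contrast under CGP called 0 transcripts (limma, 0% of those tested, smallest adjusted p = 0.217), with 2164 (6.77%) at an unadjusted p under 0.05. The transcript with the smallest p there, uc009mdp.2, had CON_CGP values of 3429, 4234, 3332 and 2693 and SRA_CGP values of 1699, 1704, 1393 and 1092. Its saline values were 4151, 2659 and 3342 in CON and 2072, 1994 and 2201 in SRA. In both infusions every SRA library was below every CON library. The differences were -1.22 ± 0.16 under CGP and -0.59 ± 0.18 under saline (log2, SE, limma adjusted p = 0.217 and 0.149).

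The other 3 transcripts named for that contrast had smaller or no saline differences. uc011wqt.1 was at 523, 542 and 530 in CON and 728, 659 and 986 in SRA, a difference of 0.58 ± 0.17, and at 0.80 ± 0.14 under CGP, without overlap in either infusion. uc007thd.1 differed by 0.09 ± 0.21 under saline, with overlap, and by -1.04 ± 0.18 under CGP. uc009rdb.1 differed by -0.03 ± 0.09 under saline, with overlap, and by 0.41 ± 0.07 under CGP. None passed in either contrast (limma adjusted p from 0.14 to 0.854).

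Whether the genotype difference itself changed with the infusion was tested by the interaction, CGP minus saline. limma called 0 transcripts (0% of those tested, smallest adjusted p = 0.927), and 1318 (4.12%) had an unadjusted p under 0.05. No transcript was therefore shown to differ in its genotype difference between saline and CGP, and the median SE of the interaction, 0.28, was larger than that of the saline contrast, 0.21. uc009dkm.2 had CON values of 2514, 2934 and 2959 and SRA values of 1589, 1454 and 1436 under saline. Its saline groups did not overlap, at a difference of -0.89 ± 0.16 (log2, SE). Under CGP the groups overlapped (1878 to 2541 in CON_CGP, 1999 to 2833 in SRA_CGP), and the interaction was 0.93 ± 0.21 (log2, SE, limma adjusted p = 0.927).

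For uc008hqg.1, CON mice had 1412, 1484 and 1549 and SRA mice 2074, 2179 and 1951, without overlap, a difference of 0.44 ± 0.09 (log2, SE). CGP values overlapped, at 1554 to 1834 in CON_CGP and 1530 to 1783 in SRA_CGP, and the interaction was -0.50 ± 0.11. uc012cti.1 had an interaction of -3.06 ± 0.70. uc009evp.1 (1.39 ± 0.34) followed sex as well as genotype, at 727 in the CON female and 85.8 and 90.2 in the CON males, against 450 and 360 in the SRA females and 55.0 in the SRA male. These 3 interactions also had a limma adjusted p of 0.927.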

How the data were processed

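Per the labels' protocols, the 14 inguinal fat RNAs were isolated by Trizol and RNeasy column, freed of DNA by DNase, and sequenced as Illumina libraries carrying an index. The programs FastQC, Bowtie, edgeR and build mm9 are named, per the submitters' processing notes, without versions or roles. The authors deposited 1 table whose values, taken here as a score, are normalized counts rounded to whole numbers, per the file header; the sources used here do not give the normalization or the counting. Whole reads were not recovered, so no count model was used and no counting interval is given. Columns were tied to samples by the number in the sample description.

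Values were divided by median-of-ratios factors from 39907 transcripts without zeros. Those averaging 100 or more across 14 libraries were tested as log2(value + 1), which understates changes of low values, with limma 3.58.1 in R 4.3.3 (1 term per group, a term for sex, robust moderation with a trend). P-values were 2-sided and adjusted over all 31967 transcripts tested by the Benjamini-Hochberg method, with a threshold of 0.05. The fit was also run on simulated data with independent noise in each transcript and library. Libraries that vary together or stand apart were not simulated, so that run does not check the calls made here. For each contrast the 2 transcripts of lowest p per direction were named, since fewer than 5 were called, skipping rows within 0.1 log2 units of one already taken in every library. The comparison, its lists and its rules were chosen with earlier results of these data known. Same-numbered SRA and CON libraries deviated together from their fitted values (r = 0.132, 0.158 and 0.289), above the limit of 0.1 set for a block, though for replicate 1 the best match in the other group was not its own number. For SRA_CGP and CON_CGP, replicate 2 did (r = 0.653), and replicates 1, 3 and 4 did not (r = -0.116, -0.183 and -0.326), so the limit was not met there. Planned gene lists and cell type markers were not used, because no ID could be paired with a gene. Alternatives covered scaling, filter, pseudocount, fit, weights and libraries left out.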

Additional observations from a re-analysis of the deposited data

Results flagged for a closer look

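Among the 11 transcripts named, the 4 libraries of each CGP group were checked for a value far from the rest, in 22 groups, where chance marks about 1 in 20. The saline groups, with 3 libraries each, were too small for this check. In uc007thd.1, SRA_CGP replicate 1 (121) stood above the other 3 (91.8 to 95.3), with 0.867 of the group's range on the log2 scale between it and its neighbour. In uc009dkm.2, SRA_CGP replicate 2 (2833) stood above the other 3 (1999 to 2042), with 0.938 of the range between it and its neighbour.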

How the results depend on the processing

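Of 30 alternatives, 29 were run, and no named transcript changed direction, while the median saline difference over all transcripts turned from 0.04 to -0.24 on the deposited values. In the fit with the replicate block, which uses the pairing of numbers, SRA and CON under saline gave 532 calls; the block with SRA replicate 3 left out was not run because its terms could not be separated. The saline contrast gave 20 calls without a filter on low values, 4754 with the 6 saline libraries alone, 8882 with array weights (whose estimation stopped before convergence) and 0 to 342 with any 1 library left out, the 342 without CON replicate 2. Transcripts at an unadjusted p under 0.05 numbered 3661 at a mean of 1000 or more, 12630 with the saline libraries alone, 13490 with array weights, 794 without CON replicate 3 and SRA replicate 3, and 729 without the 6 libraries above 3% for the other sex. Leaving out any 1 library gave 2603 (CON replicate 3) to 8274 (SRA_CGP replicate 2), with 3982 without CON replicate 1 and 3284 without SRA replicate 3. The share of these that was lower in SRA was 77.6% as deposited, 45.2% after quantile normalization and 47.7% with the saline libraries alone. It was 42.1% with array weights, 38.1% without the 6 libraries, and 19.1% to 33.9% with any 1 left out.

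Separated transcripts numbered 2131 higher and 12545 lower as deposited, 3852 and 3386 at a mean of 1000 or more, and 11226 and 10598 without CON replicate 3 and SRA replicate 3 (also without all 6 libraries), where 2 libraries face 2. With 1 saline library left out they numbered 7056 to 8902 higher and 7044 to 8737 lower. The share of the higher set that was also higher under CGP was 73.5% without CON replicate 3 and SRA replicate 3, and 79.0% to 84.9% with 1 saline library left out. The lower set gave 80.2% to 83.7%. Under CGP, 1 transcript was called at a mean of 10 or more, 1 without a filter, 7400 with array weights and 0 to 1 with any 1 library left out (1, uc009mdp.2, without CON replicate 2). The interaction gave 0 calls with each library left out. Where the values above differ, the cause was not tested beyond the numbers of transcripts or libraries each setting removes. Leaving out libraries above 3% and the saline libraries alone less SRA replicate 3 were chosen after seeing the data. With 3 libraries a group, unknown depth and no gene names, neither counting error nor the tissue make-up of a library could be measured.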
